A study of Mus musculus with 21 samples.

Results

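The 43 genes described here encode the proteins that dock, prime and fuse vesicles in neurons: 15 synaptotagmins, 8 SNAREs, 3 complexins, 7 proteins of the vesicle membrane or the synapsin family, 6 priming and active zone proteins and 4 Rab3 GTPases. They were chosen by symbol from the 35266 genes of the count and TPM tables, and all 43 were present. Of these, 42 were among the 16513 genes that passed the filter on low counts (CPM over 1 in at least 3 libraries). Cplx3 did not pass, with a group mean of at most 0.469 normalized CPM. The libraries are RNA-Seq profiles of fluorescent neurons picked by hand from the arcuate nucleus of single male mice on a C57BL/6J background. AGRP neurons came from NPY-hrGFP mice and POMC neurons from Pomc-GFP mice, so each population is defined by expression of its reporter. Mice were either fed ad libitum (AGRP n = 5, POMC n = 5) or given only water for 24 hours (food deprived, FD; AGRP n = 6, POMC n = 5), all were moved to a clean cage a day before collection, and their ages were 46 to 56 postnatal days. The design asks how each population responds to food deprivation and how the populations differ. Each cell type came from its own reporter strain, so cell type and strain cannot be told apart. Ages were 46 to 55 days for AGRP and 51 to 56 for POMC mice.

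Vesicle release follows a common plan. A SNARE on the vesicle (a Vamp) zippers together with SNAREs of the plasma membrane (syntaxin and Snap25), synaptotagmins with calcium-binding C2 domains trigger the last step when calcium enters, and complexins bind the assembled SNAREs and set how readily they fuse. Munc13 proteins (Unc13 genes), RIMs and Rab3 prime vesicles and hold them at the active zone, CAPS proteins (Cadps genes) act in the priming of dense-core vesicles, and SV2, synaptophysin and synapsins belong to the vesicle itself. AGRP neurons release GABA and the peptides NPY and AGRP and promote feeding, whereas POMC neurons release melanocortin peptides and restrain it.

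Each library held between 9822298 and 37663979 gene counts (median 19189780) from 44 to 214 sorted cells, and 3 counts corresponded to 0.0797 to 0.305 CPM. Levels per gene below are CPM after TMM scaling (normalized CPM) unless TPM, which is also divided by gene length, is named. Because the libraries are bulk pools, fewer cells of a type and less RNA per cell cannot be told apart. The defining peptides went with the labels. Agrp and Npy summed to 2059 to 17250 normalized CPM in the AGRP libraries and 1.56 to 42.8 in the POMC libraries, and Pomc and Cartpt summed to 2621 to 12540 in the POMC libraries and 28.6 to 81.0 in the AGRP libraries. Summed levels of 5 markers each were 21.4 to 229 normalized CPM for astrocytes, 43.2 to 105.5 for oligodendrocytes, 0.0553 to 5.99 for microglia, where C1qa and C1qb were at or under 3 counts in every library, and 1.16 to 30.6 for endothelial cells, where Cldn5 was. In each library most of the astrocyte sum was Slc1a2 (19.9 to 227 normalized CPM) and most of the oligodendrocyte sum was Mbp (39.5 to 94.4). Tanycyte and ependymal markers (4 genes) summed to 1.65 to 20.6 normalized CPM. Markers of other arcuate neurons (Th, Ghrh, Kiss1, Tac2 and Sst) summed to 89.6 to 473 normalized CPM in AGRP and 0.107 to 39.5 in POMC libraries. Nearly all of the sum in AGRP libraries was Sst, at 88.5 to 464. Sst was higher in AGRP than in POMC neurons in both states (log2 fold change 4.02 in fed and 6.33 in FD mice). Itm2a, an endothelial marker, was lower in AGRP than in POMC neurons of FD mice (log2 fold change -3.51). The astrocyte marker Aldh1l1 was at or under 3 counts in every fed AGRP library. It was called higher in FD AGRP libraries (adjusted p = 0.0284 by edgeR), the 1 call among the 5 astrocyte markers in that comparison. The sum of the 5 had a median of 68.8 normalized CPM in FD and 97.6 in fed AGRP libraries. The part of these cells in the results was not tested.

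One member split the POMC libraries by spike-in set. Libraries had received 1 µl of diluted spike-in RNA, 10 µl, or a volume scaled to the number of cells. Among the POMC libraries age went with the set, at 51 days with a scaled volume, 54 with 10 µl and 55 or 56 with 1 µl. Set and age therefore cannot be told apart there. Rab3c was at 1.12 to 4.42 normalized CPM in the 6 POMC libraries with 1 µl (3 fed, 3 FD), at 164 and 180 in the 2 fed libraries with a scaled volume and at 291 and 412 in the 2 FD libraries with 10 µl. In the AGRP libraries Rab3c was 877 to 1903 in all 3 spike-in sets. Snap25 was the only other member whose POMC libraries separated by set, at 2761 to 3094 against 1987 to 2397 normalized CPM. Of the defining peptides, Cartpt was at 4460 and 4348 normalized CPM in the 2 fed POMC libraries with a scaled volume. In the other POMC libraries it was at 436 to 1140. Pomc was also highest in those 2, at 6496 and 8196 against 2184 to 4823 in the others. Results that involve POMC libraries are therefore also given from those with 1 µl alone where that changed them.

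Compared per gene length, the release machinery was present at high levels in both cell types (plot of mean TPM by gene). Snap25, Syp and Vamp2, which encode a plasma membrane SNARE, the vesicle protein synaptophysin and the main vesicle SNARE, had mean TPM of 2153 ± 185, 1065 ± 329 and 866 ± 150 in fed AGRP neurons (SD, n = 5) and 3698 ± 939, 1452 ± 250 and 950 ± 146 in fed POMC neurons (SD, n = 5). The 43 genes together took 0.920% ± 0.0803 of all TPM in fed AGRP neurons (SD, n = 5), 1.13% ± 0.0933 in FD AGRP neurons (SD, n = 6), 1.09% ± 0.129 in fed POMC neurons (SD, n = 5) and 1.09% ± 0.0474 in FD POMC neurons (SD, n = 5). The calcium sensor genes best known from fast synapses were not the leading synaptotagmins. In fed AGRP neurons Syt1 made up 6.67% ± 0.763 of the summed synaptotagmin TPM and Syt2 0.0821% ± 0.0403, against 23.7% ± 2.41 for Syt4, 21.6% ± 2.96 for Syt5 and 20.9% ± 1.08 for Syt11 (SD, n = 5). Syt4 and Syt11 encode synaptotagmins with a substitution in the first calcium-binding domain. In fed POMC neurons Syt4 took 44.4% ± 7.51 and Syt1 2.59% ± 1.43 of the same sum (SD, n = 5).

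**Figure D1:**
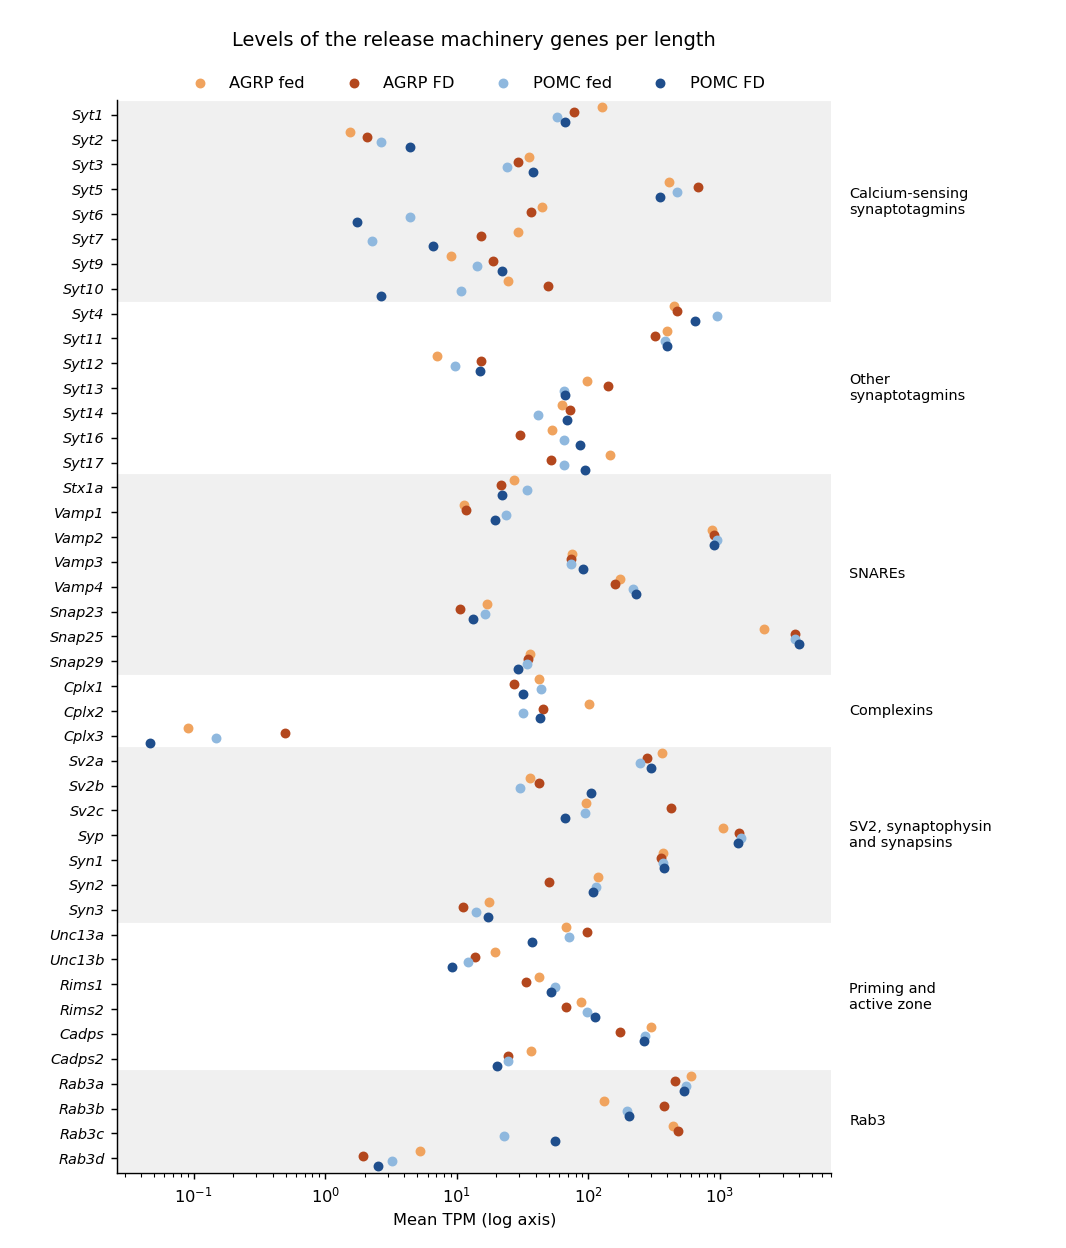
Mean TPM of each of the 43 genes in the 4 groups (n = 5, 6, 5 and 5 libraries), on a log axis, grouped by role. Snap25 was the highest member in each group and Cplx3 the lowest, and the group means of Rab3c, Syt6, Syt7, Syt10 and Sv2c lie far apart.

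Food deprivation changed the release genes of AGRP neurons in both directions. Of the 42 members tested, 10 rose and 4 fell at an adjusted p under 0.05, and 10.3% of all genes tested were called in this comparison (5.87% higher, 4.43% lower). Among genes with a group mean over 20 CPM, 13 of 38 members were called against 17.2% of 8200 genes. Adding 2 criteria, an absolute log2 fold change above 1 and at least 1 group averaging above 20 CPM, left 6 members and 4.46% of all genes. Without overlap between FD and fed libraries were 5 members that were higher and 3 that were lower in FD mice, against 7.65% of all genes (4.08% higher, 3.57% lower). The median log2 fold change was 0.048 over the members and -0.023 over all genes, so the members did not shift together. The largest rises were in Sv2c, Rab3b, Syt9, Syt12, Snap25 and Syt5, and the falls were in Syt17, Syn2, Cplx2 and Cadps. The direction was the same within each of the 3 spike-in sets for all 14 called members, but these are the same libraries that gave the calls. The 1 µl set held 1 FD and 1 fed AGRP library. For members whose FD and fed libraries do not overlap, the direction within a set is fixed in advance.

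Among the calcium-sensing synaptotagmins, Syt5 and Syt9 rose. Syt5 was at 149, 204, 209, 209 and 248 normalized CPM in fed AGRP libraries and at 276 (lowest), 394 (median) and 557 (highest) in FD libraries, without overlap (log2 fold change 1.01, SE 0.17, adjusted p = 0.000116). Syt9, which encodes a sensor that can drive fast release, was at 6.17, 7.98, 11.2, 11.7 and 12.0 normalized CPM in fed libraries and at 10.7 (lowest), 24.4 (median) and 46.4 (highest) in FD libraries (log2 fold change 1.36, SE 0.36, adjusted p = 0.0121). The Syt9 groups overlapped, with the lowest FD library inside the fed range. Syt5 carried 33.8% ± 3.54 of the synaptotagmin TPM in FD AGRP neurons (SD, n = 6), the largest share of the 15 genes there. Syt10 had a mean of 31.0 ± 10.9 normalized CPM in FD libraries (SD, n = 6) and 12.9 ± 6.46 in fed libraries (SD, n = 5), which did not pass in edgeR (log2 fold change 1.26, SE 0.48, adjusted p = 0.0953) but did in limma-voom, DESeq2 and edgeR on the AGRP groups alone (adjusted p = 0.0189, 0.0459 and 0.0269). Syt7, a high-affinity sensor linked to slow and sustained release, was at 35.8 ± 12.8 against 58.1 ± 14.0 and did not pass either (log2 fold change -0.70, adjusted p = 0.231). Syt1, the classical fast sensor, was at 128 ± 26.5 against 173 ± 22.1 normalized CPM (adjusted p = 0.33).

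Of the synaptotagmins that lack a full set of calcium-binding residues or are little studied, Syt12, Syt13 and Syt14 rose and Syt17 fell. Syt12 was at 4.12, 4.41, 7.55, 8.89 and 11.5 normalized CPM in fed libraries and at 10.6 (lowest), 18.5 (median) and 26.8 (highest) in FD libraries (log2 fold change 1.36, SE 0.43, adjusted p = 0.0372). Only the lowest FD library reached into the fed range. Syt17 was at 53.8, 56.7, 66.4, 66.6 and 95.7 normalized CPM in fed libraries and at 15.5 (lowest), 26.8 (median) and 55.8 (highest) in FD libraries (log2 fold change -1.20, SE 0.29, adjusted p = 0.00566), and again 1 FD library overlapped the fed range. Syt13 rose from 105 ± 15.2 to 181 ± 39.4 normalized CPM (log2 fold change 0.79, adjusted p = 0.00614) without overlap, and Syt14 from 142 ± 13.4 to 197 ± 45.1 (log2 fold change 0.48, adjusted p = 0.0463). Syt4 was at 629 ± 104 in FD and 497 ± 47.6 in fed libraries (adjusted p = 0.113, and 0.0449 with age cohort as a block), and Syt11 at 555 ± 75.2 and 581 ± 51.0 (adjusted p = 0.816).

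The SNARE that rose was Snap25, which with syntaxin forms the plasma membrane side of the fusion complex. It was at 1228, 1247, 1400, 1489 and 1498 normalized CPM in fed AGRP libraries and at 1832 (lowest), 2882 (median) and 3586 (highest) in FD libraries (log2 fold change 1.06, SE 0.15, adjusted p = 9.56e-06). Every FD library was above every fed library. The other 7 SNAREs were not called. Vamp2 was at 872 ± 134 in FD and 698 ± 122 in fed libraries (log2 fold change 0.32, adjusted p = 0.191), and Stx1a at 15.6 ± 5.25 and 16.9 ± 4.25 (adjusted p = 0.904). Of the complexins, Cplx2 was at 103, 116, 135, 171 and 188 normalized CPM in fed libraries and at 46.2 (lowest), 72.6 (median) and 102 (highest) in FD libraries, without overlap (log2 fold change -0.94, SE 0.24, adjusted p = 0.00915). Cplx1 was at 20.2 ± 11.5 in FD and 26.5 ± 5.32 in fed libraries (adjusted p = 0.592).

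The change of largest size was in the SV2 family, glycoproteins of the vesicle membrane that also serve as receptors for botulinum toxins. Sv2c was at 72.1, 101, 112, 115 and 198 normalized CPM in fed AGRP libraries and at 437 (lowest), 572 (median) and 1046 (highest) in FD libraries (log2 fold change 2.42, SE 0.22, adjusted p = 1.65e-08). The lowest FD library was above the highest fed library by a wide margin. Sv2a was at 406 ± 72.6 in FD and 453 ± 76.7 in fed libraries (adjusted p = 0.587), and Sv2b at 80.0 ± 22.2 and 58.9 ± 17.8 (adjusted p = 0.406). As a description per length, Sv2c made up 18.9% ± 4.55 of SV2 TPM in fed AGRP neurons (SD, n = 5) and 56.5% ± 8.88 in FD AGRP neurons (SD, n = 6), while Sv2a went from 73.9% ± 4.84 to 37.6% ± 7.29. Synaptophysin (Syp) rose from 786 ± 240 to 1215 ± 430 normalized CPM, with overlap (log2 fold change 0.63, adjusted p = 0.035). Among the synapsins, which tether vesicles in the reserve pool, Syn2 was at 173, 176, 186, 186 and 226 normalized CPM in fed libraries and at 42.0 (lowest), 100.1 (median) and 124 (highest) in FD libraries, without overlap (log2 fold change -0.99, SE 0.20, adjusted p = 0.00141). Syn1 was at 400 ± 57.9 in FD and 347 ± 46.8 in fed libraries (adjusted p = 0.449).

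Priming genes moved in opposite directions. Unc13a, which encodes the main priming factor Munc13-1, rose from 198 ± 46.0 to 339 ± 96.3 normalized CPM, with overlap (log2 fold change 0.77, SE 0.20, adjusted p = 0.0112). Cadps, which encodes the dense-core vesicle factor CAPS1, was at 424, 424, 495, 517 and 528 normalized CPM in fed libraries and at 239 (lowest), 320 (median) and 423 (highest) in FD libraries (log2 fold change -0.54, SE 0.15, adjusted p = 0.0209), and the ranges only just failed to meet. Rims1 was at 73.2 ± 21.9 in FD and 78.0 ± 19.6 in fed libraries (adjusted p = 0.876). Among the Rab3 GTPases, which mark vesicles and bind RIM, Rab3b was at 95.1, 109, 117, 157 and 162 normalized CPM in fed libraries and at 291 (lowest), 432 (median) and 637 (highest) in FD libraries (log2 fold change 1.76, SE 0.19, adjusted p = 1.71e-07). All FD libraries were higher. Rab3a was at 274 ± 65.4 in FD and 310 ± 69.2 in fed libraries (adjusted p = 0.683), and Rab3c at 1404 ± 393 and 1069 ± 81.3 (adjusted p = 0.875). The fit shares 1 estimate of spread over the 4 groups, so the split of the POMC libraries enters this Rab3c test. Its SE was 0.99, against 0.20 for Rab3a, and only a large difference was detectable. Per length, Rab3b went from 11.2% ± 2.24 to 28.5% ± 4.54 of the summed Rab3 TPM.

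Some of these calls rest on few libraries, on covariates or on the scaling. Syt12 lost its call with any 1 of fed replicates 1, 3, 4 or 5 or FD replicates 2, 3 or 4 left out (adjusted p at most 0.106), Syt14 without any 1 of fed replicates 1, 2, 4 or 5 or FD replicates 2 to 5 (at most 0.143), Syp without any 1 of fed replicates 1 to 3 or FD replicates 2 or 3 (at most 0.126) and Cadps without fed replicate 1 or 3 or FD replicate 3 or 4 (at most 0.0654), whereas the other 10 calls stood with each library left out. Syt12 was also lost with age cohort as a block, with sorted cells as covariate and without the count filter (at most 0.0975), Syt14 under 5 of 9 alternatives besides ERCC scaling, among them the replicate block and RLE factors (at most 0.0824), and Syp with sorted cells as covariate and with the 2 groups alone (at most 0.147). When libraries were scaled by their ERCC counts and cell numbers in place of TMM, edgeR called none of the members (2 at an unadjusted p under 0.05), and the log2 fold changes of Sv2c and Rab3b were 2.17 and 1.76 (adjusted p = 0.279 and 0.54). The relative RNA per cell that this scaling implies went with the spike-in set over all libraries. It was 0.280 to 0.414 with 10 µl, 0.761 to 1.27 with 1 µl and 1.57 to 4.50 with a scaled volume.

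**Figure D2:**
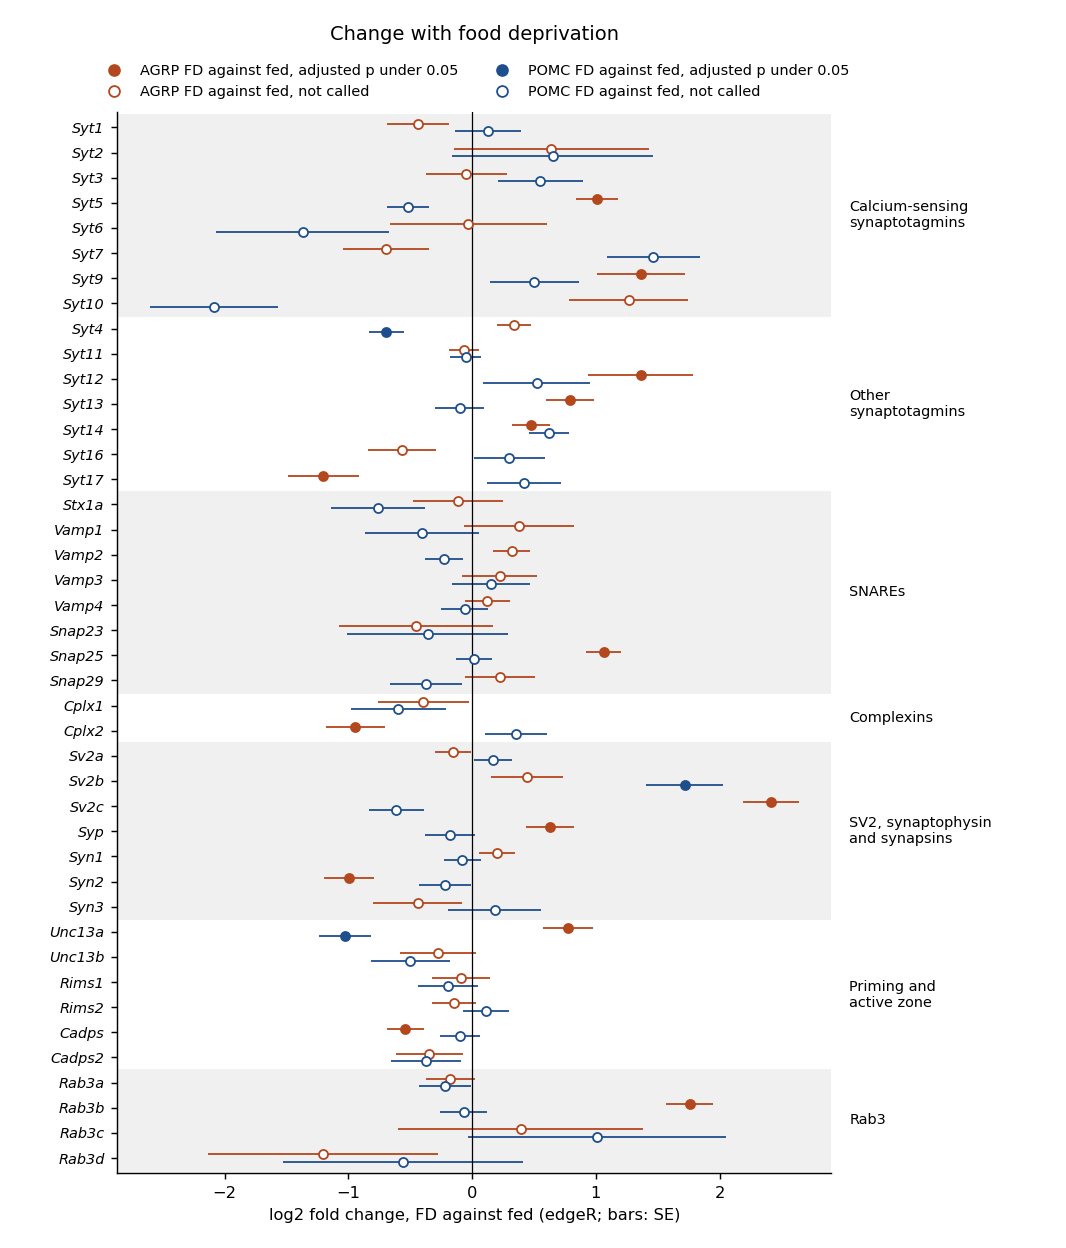
Log2 fold change with food deprivation (edgeR, bars are SE) for the 42 tested members in AGRP neurons (6 FD, 5 fed libraries) and POMC neurons (5 and 5), with filled points for an adjusted p under 0.05. In AGRP neurons 14 points are filled, from Sv2c at 2.42 to Syt17 at -1.20, and in POMC neurons 3 are filled.

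**Figure D3:**
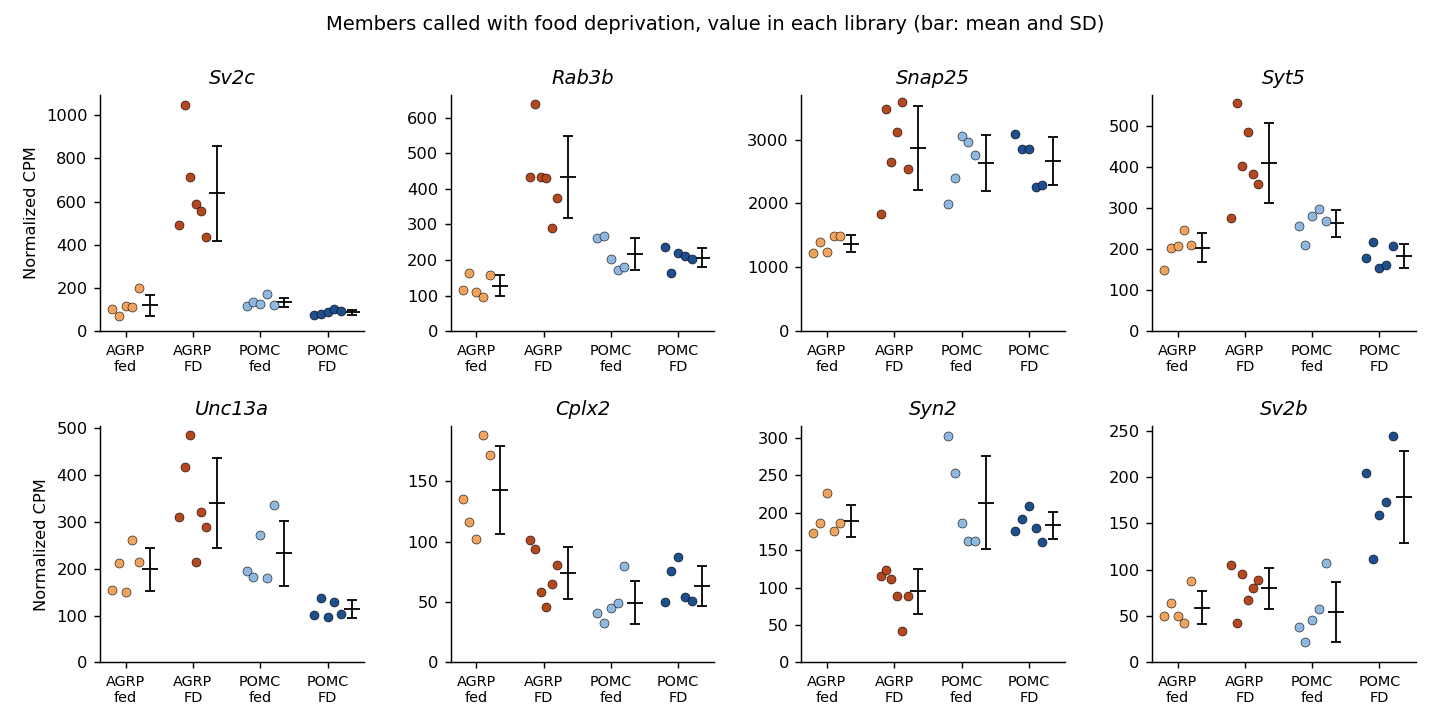
Normalized CPM in each of the 21 libraries for 8 members called with food deprivation in AGRP or POMC neurons, with the mean and SD of each group. Sv2c, Rab3b, Snap25 and Syt5 separate FD from fed AGRP libraries upward and Cplx2 and Syn2 downward, while Sv2b separates the POMC groups.

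Promoter sequences are shown for the SV2, Rab3 and Unc13 genes that rose and the synapsin gene that fell. A RefSeq start within 100 bases of the gene start in the files was required. Of the called members that met this, these 4 had the smallest adjusted p with deprivation in AGRP neurons. Each sequence is 300 bases of the GRCm38 (mm10) assembly, from 250 before to 50 after the start, 5′ to 3′ on the gene's strand, with GGGCGG (the GC box) on either strand in capitals. They lie at chr13:96132528-96132827 on the minus strand (Sv2c, whose gene spans 95959442 to 96132577), chr4:108878820-108879119 on the plus strand (Rab3b, 108879062 to 108943324), chr8:71671708-71672007 on the minus strand (Unc13a, 71624416 to 71671757) and chr6:115134652-115134951 on the plus strand (Syn2, 115134901 to 115282626).
Sv2c: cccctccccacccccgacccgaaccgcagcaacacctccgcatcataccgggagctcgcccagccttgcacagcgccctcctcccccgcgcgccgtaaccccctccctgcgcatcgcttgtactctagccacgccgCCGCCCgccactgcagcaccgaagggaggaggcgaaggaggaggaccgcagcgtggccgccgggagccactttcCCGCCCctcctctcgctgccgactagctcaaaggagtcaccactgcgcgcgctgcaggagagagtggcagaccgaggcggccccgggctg
Rab3b: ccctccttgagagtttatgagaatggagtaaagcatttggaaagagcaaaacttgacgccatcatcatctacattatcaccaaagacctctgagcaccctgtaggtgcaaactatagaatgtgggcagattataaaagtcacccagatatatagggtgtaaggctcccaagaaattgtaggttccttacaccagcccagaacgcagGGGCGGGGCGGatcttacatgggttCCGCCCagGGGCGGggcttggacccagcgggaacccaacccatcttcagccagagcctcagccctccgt
Unc13a: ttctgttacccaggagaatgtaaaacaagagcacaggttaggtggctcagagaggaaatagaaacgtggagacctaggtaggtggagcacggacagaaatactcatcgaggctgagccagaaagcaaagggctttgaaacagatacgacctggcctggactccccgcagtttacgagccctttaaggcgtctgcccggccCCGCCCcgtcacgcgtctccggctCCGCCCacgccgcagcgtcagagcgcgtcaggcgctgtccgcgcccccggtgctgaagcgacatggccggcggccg
Syn2: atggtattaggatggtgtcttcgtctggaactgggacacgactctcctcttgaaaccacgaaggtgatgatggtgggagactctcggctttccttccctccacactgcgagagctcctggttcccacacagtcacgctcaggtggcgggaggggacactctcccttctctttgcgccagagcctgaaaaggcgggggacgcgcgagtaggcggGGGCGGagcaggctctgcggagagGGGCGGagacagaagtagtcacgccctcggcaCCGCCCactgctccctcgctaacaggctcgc
All 4 windows held at least 2 GC boxes, those of genes that rose and that of the gene that fell. Promoters were found for 32 of the 43 members (42 entries). Some members have several entries, and windows of Syt6 overlap, so a site can count more than once. GGGCGG was in 28 of the 42 (25 genes), or 66.7%, against 35.7% of all 32851 promoters of the same length. CCAAT was in 11 of 42, or 26.2% (37.4% of all promoters). CACGTG, the E-box, was in 8 of 42 (7 genes), or 19.0% (7.15% of all). TGACGTC, part of the cAMP response element, was in 2 of 42, or 4.76% (3.21% of all), those of Syn1 and Rab3a. None of the printed windows held any of the other 3 motifs on either strand. Different motifs did not overlap in these windows, but the first pair of GC boxes of Rab3b shares a base, and a match is a match of letters only.

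In POMC neurons food deprivation changed 3 of the 42 members, with 0.375% of all genes called (0.182% higher, 0.194% lower). With the added fold and level criteria it was 2 members and 0.266% of all genes, and among genes over 20 CPM 3 of 38 members and 0.671% of 8200 genes. Libraries did not overlap for 2 members that were higher and 3 that were lower in FD mice, against 2.35% of all genes (1.08% higher, 1.27% lower). Sv2b rose and Unc13a and Syt4 fell, and no library overlapped between the groups for any of the 3. Sv2b was at 21.7, 38.6, 46.1, 57.1 and 108 normalized CPM in fed POMC libraries and at 112, 159, 173, 204 and 244 in FD libraries (log2 fold change 1.72, SE 0.31, adjusted p = 0.00397). Sv2b thus took 21.9% ± 3.51 of SV2 TPM in FD POMC neurons and 7.89% ± 4.69 in fed ones (SD, n = 5 each), where Sv2a had the largest share in both. Unc13a was at 180, 182, 194, 271 and 334 normalized CPM in fed libraries and at 97.0, 102, 104, 130 and 138 in FD libraries (log2 fold change -1.03, SE 0.21, adjusted p = 0.0158). The same priming gene rose in AGRP neurons. Syt4, which is found on dense-core vesicles, was at 946, 1081, 1154, 1413 and 1526 normalized CPM in fed libraries and at 667, 722, 752, 813 and 833 in FD libraries (log2 fold change -0.69, SE 0.14, adjusted p = 0.0144).

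Of the 10 genes that rose in AGRP neurons, Unc13a was the one called here by edgeR, in the opposite direction. Syt14 was at 94.6 to 113 normalized CPM in fed and 146 to 191 in FD POMC libraries, higher in every FD library. It did not pass the threshold in edgeR (log2 fold change 0.62, SE 0.16, adjusted p = 0.0719). Sv2c was at 115, 124, 126, 134 and 170.5 normalized CPM in fed and at 74.6, 78.3, 86.9, 95.3 and 103 in FD POMC libraries, lower in every FD library but not past the threshold (log2 fold change -0.61, SE 0.22, adjusted p = 0.208). Rab3b was at 217 ± 45.1 in fed and 207 ± 27.7 in FD libraries (adjusted p = 0.939), Snap25 at 2635 ± 443 and 2666 ± 377 (adjusted p = 0.986), Syt5 at 263 ± 33.3 and 184 ± 28.5 (adjusted p = 0.172), Syt9 at 17.7 ± 2.32 and 25.1 ± 5.85 (adjusted p = 0.625), Syp at 1209 ± 102 and 1066 ± 120 (adjusted p = 0.798) and Cadps at 475 ± 111 and 443 ± 31.6 (adjusted p = 0.882). Syt10 was at 2.44, 3.08, 5.91, 7.63 and 12.7 normalized CPM in fed libraries and at 0.295, 0.943, 1.53, 1.86 and 2.67 in FD libraries (log2 fold change -2.09, SE 0.52, adjusted p = 0.0604), with overlap at 1 library of each group. Syt7 was at 4.95 ± 1.99 in fed and 13.7 ± 6.65 in FD libraries (log2 fold change 1.47, SE 0.37, adjusted p = 0.0696). DESeq2 called 6 members, these 3 and also Syt7, Syt10 and Syt14 (adjusted p = 0.00839, 0.00432 and 0.00839).

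Of the other members given whatever their call, Syt1 was at 87.5 ± 47.3 in fed and 95.7 ± 24.9 normalized CPM in FD POMC neurons, Syt11 at 638 ± 46.2 and 616 ± 86.4, Stx1a at 24.1 ± 11.4 and 14.2 ± 5.39, Vamp2 at 884 ± 226 and 757 ± 69.0, Cplx1 at 31.4 ± 11.4 and 20.8 ± 10.8, and Cplx2 at 49.6 ± 18.0 and 63.5 ± 16.8. None of these 6 passed (adjusted p from 0.424 to 0.927). Sv2a was at 346 ± 38.0 in fed and 389 ± 61.2 in FD POMC libraries, Syn1 at 395 ± 61.4 and 373 ± 72.2, Rims1 at 116 ± 36.7 and 102 ± 21.1 and Rab3a at 328 ± 112 and 282 ± 57.7, with adjusted p from 0.724 to 0.901. In the 6 POMC libraries with 1 µl of spike-in edgeR called none of the members (9 at an unadjusted p under 0.05), with log2 fold changes of 1.17 for Sv2b, -1.23 for Unc13a and -0.47 for Syt4. Leaving out fed replicate 1 or 2 or FD replicate 1 ended the call of Syt4 (adjusted p at most 0.0577), leaving out fed replicate 5 or FD replicate 1 or 3 that of Unc13a (at most 0.0585), age cohort as a block that of Syt4 (0.0781), spike-in set as a block that of Unc13a (0.0532), and ERCC scaling all 3, with 8 members at an unadjusted p under 0.05.

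The responses of the cell types differed for 11 of the 42 members in the interaction of cell type and deprivation, with 6.71% of all genes called (4.08% more positive in AGRP neurons, 2.63% more negative). With the added fold and level criteria it was 10 members and 4.58% of all genes, and among genes over 20 CPM 11 of 38 members and 11.5% of 8200 genes. For 8 members the change was more positive in AGRP neurons and for 3 it was more negative. Syt10 had the largest difference (log2 3.35, SE 0.70, adjusted p = 0.00311), although its change passed in neither cell type alone in edgeR (DESeq2 called it in both), and Sv2c followed (log2 3.03, SE 0.31, adjusted p = 1.54e-07). Rab3b (log2 1.83, SE 0.26, adjusted p = 4.77e-05), Unc13a (log2 1.80, SE 0.29, adjusted p = 0.000171), Syt5 (log2 1.53, SE 0.24, adjusted p = 0.000115), Snap25 (log2 1.05, SE 0.21, adjusted p = 0.00161), Syt4 (log2 1.03, SE 0.19, adjusted p = 0.00098) and Syt13 (log2 0.89, SE 0.27, adjusted p = 0.0444) also moved up in AGRP relative to POMC neurons. Unc13a was the member called in opposite directions in the 2 cell types. The differences of opposite sign were in Syt7 (log2 -2.16, SE 0.51, adjusted p = 0.00803), Syt17 (log2 -1.62, SE 0.41, adjusted p = 0.0147) and Cplx2 (log2 -1.30, SE 0.35, adjusted p = 0.0192), that is, 2 synaptotagmins and a complexin.

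For the remaining members a difference in response did not pass. Sv2b, called in POMC neurons alone, had an interaction of -1.28 (SE 0.42, adjusted p = 0.0619), Syn2 one of -0.77 (SE 0.29, adjusted p = 0.118), Syp one of 0.81 (SE 0.28, adjusted p = 0.0788) and Cadps one of -0.44 (SE 0.22, adjusted p = 0.268). Syt9, Syt12 and Syt14, called by edgeR in AGRP neurons alone, had interactions of 0.86, 0.84 and -0.15 (adjusted p = 0.358, 0.476 and 0.776 by edgeR). The changes of all these genes are therefore not shown by this fit to be particular to a cell type. Under alternatives the interaction was called for Sv2b in 4 (limma-voom, DESeq2, no count filter and the replicate block, adjusted p from 0.0187 to 0.0381), for Syn2 in 4 (limma-voom, the age cohort and spike-in set blocks and the 1 µl POMC libraries alone, 0.00992 to 0.0492) and for Syp in 2 (the replicate and age cohort blocks, 0.0424 and 0.00598). Syt13 lost its interaction call with any 1 of 13 of the 21 libraries left out (adjusted p at most 0.0892): AGRP fed replicates 1 to 4, AGRP FD replicates 3 and 4, POMC fed replicates 1 to 4 and POMC FD replicates 1, 2 and 4. It was also lost with age cohort as a block, with sorted cells as covariate and without the count filter (at most 0.0593). With the POMC libraries of the 1 µl set alone, Syt7, Syt13, Syt17 and Cplx2 lost the call (adjusted p = 0.0513, 0.0984, 0.159 and 0.0775) and Syn2 gained it (log2 -1.17, adjusted p = 0.0434), and under ERCC scaling none of the members was called (5 at an unadjusted p under 0.05).

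In fed mice the cell types differed in 9 members, of which 6 were higher in AGRP neurons and 3 in POMC neurons, and 7.57% of all genes were called (3.33% higher and 4.24% lower in AGRP neurons). With the added fold and level criteria 6 members and 4.01% of all genes were called. The libraries of the cell types did not overlap for 12 members, 6 each way, and for 8.93% of all genes, and 9 of the 38 members with a group mean over 20 CPM were called against 11.9% of 8200 genes. The largest differences were in synaptotagmins and Rab3c. Syt7 was at 43.3, 45.6, 56.7, 72.0 and 72.8 normalized CPM in fed AGRP libraries and at 1.93, 4.15, 5.36, 6.37 and 6.92 in fed POMC libraries (log2 fold change 3.55, SE 0.40, adjusted p = 1.39e-07). Syt6, a calcium-binding synaptotagmin, was at 67.2, 67.4, 68.0, 77.2 and 81.2 against 0.166, 0.37, 1.38, 17.7 and 18.5 (log2 fold change 3.24, SE 0.72, adjusted p = 0.00314). Both were higher in every AGRP library, and the POMC libraries spread widely for Syt6. Rab3c was at 975, 1022, 1042, 1142 and 1166 in AGRP and at 1.38, 2.12, 4.42, 164 and 180 in POMC libraries (log2 fold change 3.93, SE 1.16, adjusted p = 0.032), and with the POMC libraries of the 1 µl set alone its log2 fold change was 8.67 (adjusted p = 1.03e-12).

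Cplx2 was at 33.1, 40.6, 45.2, 49.1 and 79.9 normalized CPM in fed POMC libraries, all below the fed AGRP values given above (log2 fold change 1.53, SE 0.25, adjusted p = 9.53e-05). Syt17 (log2 fold change 1.01, SE 0.30, adjusted p = 0.035) and Syt1 (log2 fold change 0.99, SE 0.27, adjusted p = 0.0179) were also higher in AGRP neurons. Higher in POMC neurons were Syt4 (log2 fold change -1.30, SE 0.14, adjusted p = 7.25e-08), with fed libraries as listed above and a fed AGRP maximum of 559 normalized CPM, Snap25 (log2 fold change -0.94, SE 0.15, adjusted p = 4.71e-05), at 1987, 2397, 2761, 2966 and 3064 normalized CPM, and Rab3b (log2 fold change -0.76, SE 0.19, adjusted p = 0.00886), at 172, 180, 202, 263 and 266. None of the 3 overlapped the fed AGRP libraries. Syt17 lost the call without any 1 of AGRP fed replicates 2 to 4 or POMC fed replicates 1, 2, 4 or 5 (adjusted p at most 0.108), Syt1 without AGRP fed replicate 3 or POMC fed replicate 1 or 2 (at most 0.0609) and Rab3c without POMC fed replicate 3, 4 or 5 (at most 0.0666). The replicate and spike-in set blocks also ended the call of Syt17 (at most 0.113), and the replicate block that of Rab3c (0.05). Syp, lower in AGRP neurons but not past the threshold (log2 fold change -0.62, adjusted p = 0.056), was called under 5 alternatives, among them limma-voom and the age cohort and spike-in set blocks (at most 0.033). With the 1 µl POMC libraries alone, Syt1, Syt17 and Rab3b lost it (adjusted p = 0.19, 0.183 and 0.165).

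In FD mice 14 members differed, of which 9 were higher in AGRP neurons and 5 in POMC neurons, where 18.6% of all genes were called (9.28% higher and 9.27% lower in AGRP neurons). With the same fold and level criteria 11 members and 8.16% of all genes were called. The libraries did not overlap for 9 members higher and 3 lower in AGRP neurons, against 11.4% of all genes (5.94% higher, 5.49% lower). Among genes with a group mean over 20 CPM, 14 of 38 members and 27.9% of 8200 genes were called. The calcium sensors Syt6, Syt10, Syt7 and Syt5 were higher in AGRP neurons. Syt6 was at 55.6 (lowest), 69.3 (median) and 89.5 (highest) normalized CPM in FD AGRP libraries and at 0.382, 1.86, 3.24, 4.42 and 4.91 in FD POMC libraries (log2 fold change 4.58, SE 0.77, adjusted p = 4.65e-05). Syt10 was at 19.9 (lowest), 27.7 (median) and 48.6 (highest) against the FD POMC values of 0.295 to 2.67 given above (log2 fold change 4.38, SE 0.56, adjusted p = 6.53e-07). In fed mice the Syt10 ranges of the cell types met, at 7.68 to 22.2 and 2.44 to 12.7 normalized CPM (log2 fold change 1.02, adjusted p = 0.254). Sv2c (log2 fold change 2.87, SE 0.23, adjusted p = 8.18e-11) was at 437 or more in every FD AGRP library and at 103 or less in every FD POMC library, whereas in fed mice it did not differ past the threshold (log2 fold change -0.16, SE 0.22, adjusted p = 0.771).

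Rab3c was at 877 (lowest), 1330 (median) and 1903 (highest) normalized CPM in FD AGRP libraries and at 1.12, 1.35, 4.11, 291 and 412 in FD POMC libraries (log2 fold change 3.31, SE 1.11, adjusted p = 0.0341, and 9.31 with the 1 µl set alone, adjusted p = 2.72e-13). Unc13a (log2 fold change 1.57, adjusted p = 1.14e-06), Syt7 (1.39, adjusted p = 0.00571), Syt13 (1.29, adjusted p = 8.69e-06), Syt5 (1.16, adjusted p = 5.01e-06) and Rab3b (1.07, adjusted p = 6.82e-05) completed the members higher in AGRP neurons. Rab3b had been lower in AGRP neurons of fed mice, so its order between the cell types turned with deprivation. On the POMC side, Syt16 was at 42.7, 62.5, 63.6, 72.4 and 105 normalized CPM against 16.5 (lowest), 26.5 (median) and 38.3 (highest) in AGRP libraries (log2 fold change -1.33, SE 0.28, adjusted p = 0.000656). Sv2b (log2 fold change -1.16, SE 0.29, adjusted p = 0.00419) had FD AGRP values of 42.9 (lowest), 84.6 (median) and 105 (highest), all below the FD POMC libraries. Syn2 (log2 fold change -0.95, SE 0.20, adjusted p = 0.000986) was at 161, 175, 179, 192 and 209 in FD POMC libraries, also without overlap, and Rims2, a RIM scaffold gene, was at 127, 152, 156, 176 and 243 against 86.3 (lowest), 119.8 (median) and 139 (highest), with overlap (log2 fold change -0.57, SE 0.18, adjusted p = 0.0233). Cadps (log2 fold change -0.43, adjusted p = 0.0468) was the closest to the threshold.

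Of these, Rims2 lost the call without AGRP FD replicate 2 or 6 or POMC FD replicate 3 (adjusted p at most 0.128), Rab3c without AGRP FD replicate 2 or 4 or POMC FD replicate 1, 2 or 3 (at most 0.0699) and Cadps without any 1 of AGRP FD replicates 1, 3, 4 or 5 or any FD POMC library (at most 0.115). Rims2 was also lost under the replicate and spike-in set blocks and with the 2 groups alone (at most 0.0675), and Cadps under 6 of 9 alternatives besides ERCC scaling, among them the age cohort and spike-in set blocks (at most 0.242). Under ERCC scaling, which moved the median over all genes by over 1 (log2) toward AGRP neurons, 7 members were called, all higher in AGRP neurons, and Sv2b, Syn2, Rims2 and Cadps changed sign. The fed and FD comparisons share no libraries with each other, but each shares its libraries with the deprivation comparisons.

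**Figure D4:**
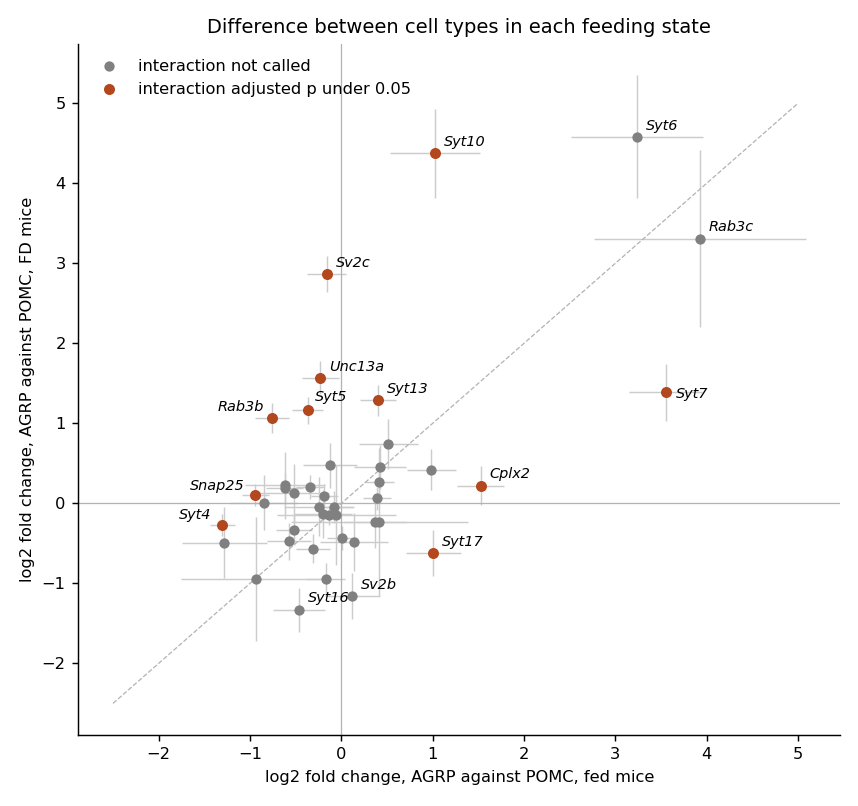
AGRP against POMC differences (log2 fold change) in fed mice (horizontal axis) and FD mice (vertical axis) for the 42 tested members, with SE bars and a dashed line of equal values. The 11 members with a called interaction lie off the line, Sv2c, Syt10, Unc13a and Rab3b above it and Syt7, Cplx2 and Syt17 below it.

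**Figure D5:**
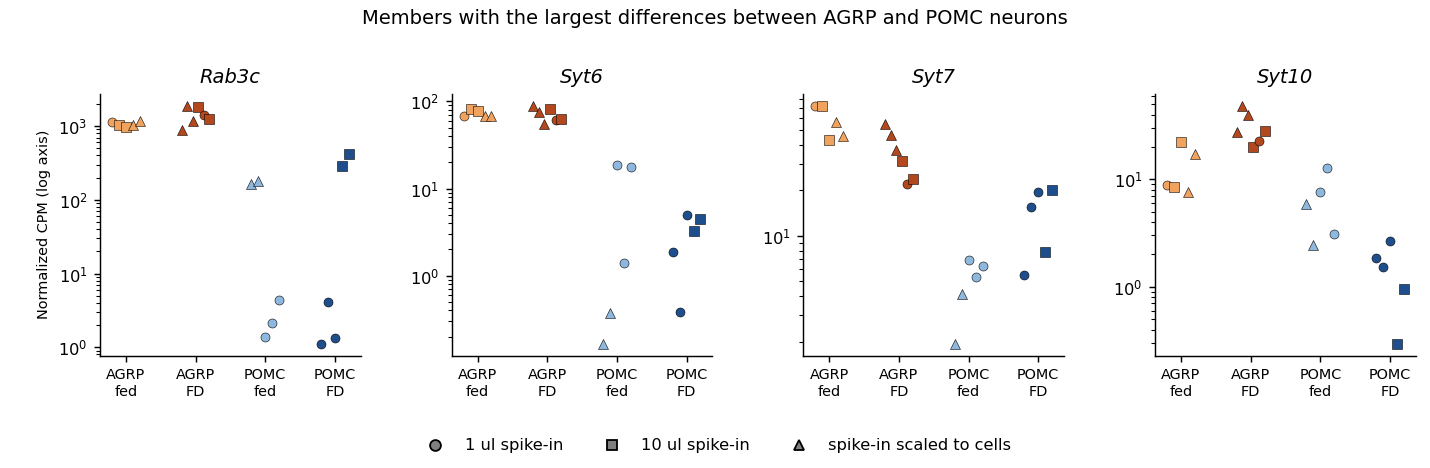
Normalized CPM on a log axis in each of the 21 libraries for Rab3c, Syt6, Syt7 and Syt10, with the marker shape giving the spike-in set. The POMC libraries with 1 µl lie at 1.12 to 4.42 for Rab3c and the other 4 at 164 to 412, while AGRP libraries lie at 877 to 1903.

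A further 101 genes of exocytosis in 7 lists were examined, of which 91 were tested. In AGRP neurons 8 rose and 9 fell with food deprivation (17 called, or 18.7% of those tested, beside 10.3% of all genes), and their median log2 fold change was 0.023. In the Rab3 and Rab27 pathway 1 of 16 rose and 3 fell, led by the Rab3 effector Rph3a, rabphilin (log2 fold change -2.40, SE 0.32, adjusted p = 6.26e-06), and by Doc2b, a calcium-binding C2 protein (log2 fold change -0.89, adjusted p = 0.0131). Among NSF, SNAP and SM proteins 1 of 12 rose, Napb, which encodes beta-SNAP (log2 fold change 0.63, adjusted p = 0.000691), and 2 fell, with Stxbp4 first (log2 fold change -1.40, adjusted p = 1.27e-05). Other syntaxins and SNAREs rose in 4 of 22 cases, among them Stx12 (log2 fold change 0.82, adjusted p = 0.000183) and Stx4a (log2 fold change 1.17, adjusted p = 0.00129). Of 14 other vesicle membrane proteins 2 rose, Atp6v1b2, a subunit of the vacuolar proton pump (log2 fold change 0.99, adjusted p = 1.34e-05), and Svop (log2 fold change 0.88, adjusted p = 0.0113), and 1 fell. Of 13 active zone scaffold and priming genes 1 fell, Baiap3 (log2 fold change -0.86, adjusted p = 0.000479), and of 5 other synaptotagmin and complexin relatives Esyt3 and Mctp1 fell (log2 fold change -1.44 and -1.80, adjusted p = 0.000382 and 0.0445). None of 9 exocyst subunits was called by edgeR (2 at an unadjusted p under 0.05), limma-voom or DESeq2.

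In POMC neurons none of the 91 was called by edgeR with food deprivation (13 at an unadjusted p under 0.05) or by limma-voom, and DESeq2 called 1. Between the cell types 6 of the 91 differed in fed mice (6.59%, beside 7.57% of all genes) and 29 in FD mice (31.9%, beside 18.6%). In fed mice Napb was lower in AGRP neurons (log2 fold change -0.99, adjusted p = 1.09e-06), as were Sytl5, Stx7 and Syngr1, and Rab3ip (log2 fold change 1.41, adjusted p = 0.0111) and Rab3gap2 (0.63, adjusted p = 0.012) were higher. In FD mice the Rab3 and Rab27 pathway split, with 4 genes higher in AGRP neurons and 4 lower, among the latter Doc2b (log2 fold change -1.93, adjusted p = 4.41e-07) and Rab27b, a GTPase of secretory granules (log2 fold change -1.45, adjusted p = 1.55e-05). All 5 active zone genes called were lower in AGRP neurons, with the scaffolds Pclo (log2 fold change -0.81, adjusted p = 9.11e-06) and Erc2 (log2 fold change -0.67, adjusted p = 0.00875) first, and Stxbp5 (1.01, adjusted p = 2.08e-05), Atp6v1b2 (0.94, adjusted p = 7.18e-06), Stx12 (0.48, adjusted p = 0.0139), Stx5a (0.85, adjusted p = 0.0172) and Exoc6b (0.64, adjusted p = 0.00482) were higher, while Stxbp4 (-0.93, adjusted p = 0.000681), Synpr (-1.51, adjusted p = 0.000653) and Mctp1 (-1.75, adjusted p = 0.0334) were lower. In the interaction 11 of 91 were called (12.1%, beside 6.71% of all genes), 5 up and 6 down in AGRP relative to POMC neurons, and of the genes named here these included Atp6v1b2 (1.04, adjusted p = 0.0011), Rph3a (-2.15, adjusted p = 0.00311), Doc2b (-1.60, adjusted p = 0.00383), Stx4a (1.44, adjusted p = 0.00802), Stx12 (0.81, adjusted p = 0.0126), Stxbp4 (-1.16, adjusted p = 0.0102), Napb (0.62, adjusted p = 0.0266) and Esyt3 (-1.37, adjusted p = 0.0235).

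In all, 23 of the 42 tested members were called by edgeR in at least 1 of the 5 comparisons and 19 in none. The 19 were Syt2, Syt3 and Syt11 among the synaptotagmins, 7 of the 8 SNAREs (Stx1a, the 4 Vamp genes, Snap23 and Snap29), Cplx1, Sv2a, Syn1, Syn3, Unc13b, Rims1, Rab3a, Rab3d and Cadps2. They include both abundant genes, such as Vamp2, Syn1 and Rab3a, and genes near the filter, such as Rab3d, with group means of 2.55 to 5.91 normalized CPM and an SE of 0.93 for its change in AGRP neurons, where only a large difference was detectable. In fed mice Vamp1 was called lower in AGRP neurons with the 2 groups alone (adjusted p = 0.0136), and Vamp2 and Vamp4 with spike-in set as a block (0.0198 and 0.00939).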

How the data were processed

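RNA-Seq libraries were made from 21 mice, 1 library per mouse. The authors deposited whole-number counts per gene and TPM values, which they calculated from those counts and exon lengths. The submitters' processing notes name CASAVA, cutadapt 1.7.1, Bowtie2 2.1.0, STAR 2.4.0i, HTSeq 0.6.1p1 and mm10. RNA was amplified with a kit that does not keep strand and counted without strand, so reads of overlapping or antisense genes and of close paralogs are uncertain. Reads assigned to no gene (25.6 to 55.3% of a library) were left out.

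Counts were fitted with edgeR 4.0.16 (quasi-likelihood, TMM, 4 groups in 1 fit) in R 4.3.3, with Benjamini-Hochberg adjustment over 16513 genes, and an adjusted p under 0.05 was a call. SE was the log2 fold change divided by the square root of F. TPM served only for levels between genes, with no test. Intervals and floors of 3 counts cover counting error only. Depth is given with the results. Members and gene lists were chosen with earlier results of these data known. Named were all called members, with values for the 4 largest rises and falls per comparison, 21 further members whatever their call, and up to 2 genes with the smallest p per list of other exocytosis genes. A few list genes beyond that (Stx7, Syngr1, Sytl5 and, in the interaction, genes already named) were added after their values were seen. Alternatives were limma-voom (limma 3.58.1), DESeq2 1.42.0, RLE factors, no count filter, the compared groups alone, blocks for replicate number, age cohort and spike-in set, sorted cells as covariate, ERCC scaling, added fold and level criteria (absolute log2 fold change over 1, CPM over 20) and each library left out. The fit with POMC libraries of the 1 µl spike-in set alone was chosen after seeing the data. On data simulated for the AGRP comparison over 16513 genes, edgeR recovered 37 of 100 genes changed by log2 1 and 75 of 100 changed by log2 2, with 3 false calls. Promoters are from RefSeq.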

Additional observations from a re-analysis of the deposited data

Results flagged for a closer look

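In 5 of 124 groups of values 1 library stood apart from the others of its group by Dixon's test (4.03%), and chance alone gives about 1 in 20. Syt9 was 14.8 normalized CPM in POMC FD replicate 1 against 26.6 to 29.3 in the other 4 libraries. Cplx1 was 39.8 in the same library against 13.5 to 18.7. Syt11 was 766 in POMC FD replicate 3 against 560 to 606. Sv2a was 412 in POMC fed replicate 3 against 316 to 341. Syn2 was 226 in AGRP fed replicate 3 against 173 to 186, so this library lay farther from the FD values than the rest.

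The change with food deprivation differed between AGRP and POMC neurons for 11 members by the interaction term of the edgeR fit. The AGRP change minus the POMC change was 3.35 for Syt10, 3.03 for Sv2c, 1.83 for Rab3b, 1.80 for Unc13a, 1.53 for Syt5, 1.05 for Snap25, 1.03 for Syt4 and 0.89 for Syt13 on the log2 scale. It was -2.16 for Syt7, -1.62 for Syt17 and -1.30 for Cplx2.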

How the results depend on the processing

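Of 51 calls of a member in a comparison, 38 held with each library left out and under 9 alternatives (8 for the interaction). ERCC scaling, the added fold and level criteria and the fit with 1 µl POMC libraries alone were not among these alternatives. The fit with 1 µl POMC libraries alone ended 10 calls. Some of the 38 were among them: Sv2b in POMC neurons, Rab3b between cell types in fed mice and the interactions of Syt7, Syt17 and Cplx2. With 1 library left out, 10 to 15 members were called for AGRP FD against fed, 2 to 3 for POMC FD against fed, 7 to 10 between cell types in fed mice, 11 to 14 in FD mice and 10 to 12 in the interaction. ERCC scaling gave 0, 0, 3, 7 and 0 calls in that order (2, 8, 4, 13 and 5 at an unadjusted p under 0.05 by edgeR), moved the median over all genes to -1.11 (log2) in the POMC comparison, 1.10 between cell types in FD mice and 1.04 in the interaction, and turned the FD difference of Sv2b to 0.25, Syn2 to 0.35, Rims2 to 0.67 and Cadps to 0.68; the cause was not tested. The RNA per cell implied by ERCC scaling went with the spike-in set, and fed and FD POMC libraries differed in their sets. The added fold and level criteria left 6 calls in AGRP neurons, fewer by construction. For POMC FD against fed DESeq2 called 6 members, and the POMC libraries with 1 µl of spike-in alone, 3 against 3, gave 0 calls (9 at an unadjusted p under 0.05). In the simulated AGRP comparison DESeq2 made 34 false calls where edgeR made 3. Those counts were drawn with the scaling and spread that edgeR estimated, and no POMC comparison was simulated. The simulation therefore cannot judge the DESeq2 calls in POMC neurons.

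Libraries that share a replicate number did not deviate together (correlations from -0.113 to 0.073, 0 of 30 pairs over 0.1). Libraries of the same spike-in set correlated little as well (median 0.033, 2 of 50 pairs over 0.1). This check therefore cannot decide whether the numbers pair the mice. With a replicate block 13, 3, 7, 13 and 13 members were called, in the order above. Counting depth limits the members near the filter, and among 172 group levels 5 moved by over 1 SD when TMM-scaled CPM per length replaced TPM.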
